A study of Homo sapiens with 6 samples.

Results

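Enzymes that attach glutathione, sulfate or glucuronic acid to drugs, steroids and bile acids were followed in HepG2 cells, a human hepatoblastoma line, on 6 Affymetrix arrays. The list held 10 genes: the glutathione transferases GSTA1, GSTA4, GSTO1, GSTK1, MGST1 and MGST2, the sulfotransferases SULT1C2 and SULT2A1, and the glucuronosyltransferases UGT2B4 and UGT2B7. A gene was taken as measured where a probe set carried its symbol alone, and where several did the brightest on average was used. This gave 9 of the 10 enzymes among 19775 genes, and UGT2B7 was not analysed here. All 9 passed the filter on dim genes, and each read above the floor of 12.9, the median of all signals, on at least 5 of the 6 arrays.

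All cells had been transfected, either with a control siRNA (siControl) or with an siRNA against HNF4A (siHNF4A), the nuclear receptor that drives many hepatocyte genes. Each kind was then left without TGF-beta (0 h) or given TGF-beta at 3 ng/ml for 1.5 or 24 h. Every combination was measured on 1 array, so no group had a replicate, and the labels do not say whether arrays of 1 siRNA shared a transfection. No array at 1.5 or 24 h without the cytokine was used here, so TGF-beta and time in culture cannot be told apart. Signals are MAS5 intensities on a linear scale, scaled to a common mean on each array, and with 6 arrays the precision is low.

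Conjugation makes fat-soluble compounds soluble enough to leave the cell in bile or urine. Glutathione transferases join glutathione to reactive electrophiles, sulfotransferases move sulfate from the donor PAPS to hydroxyl groups, and glucuronosyltransferases move glucuronic acid from UDP-glucuronate. In hepatocytes these enzymes are abundant, and their genes are held to depend on liver transcription factors and on sensors of foreign compounds and oxidants. GSTA1 is the main alpha-class enzyme of human liver, GSTA4 prefers lipid aldehydes such as hydroxynonenal, and GSTK1 is a mitochondrial and peroxisomal form. GSTO1 also reduces dehydroascorbate and arsenic compounds, MGST1 sits in the membranes of the endoplasmic reticulum and mitochondria, and MGST2 can also make leukotriene C4. SULT2A1 sulfates DHEA and bile acids, SULT1C2 is a cytosolic phenol sulfotransferase, and UGT2B4 glucuronidates bile acids.

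The 250 bases upstream of the annotated start site are shown for the 4 enzymes whose signal fell at 24 h. They are from RefSeq on GRCh38.p14, written 5′ to 3′ on the strand of the gene, and capitals mark matches to the motifs named after them. The start site used for MGST1 was not the outermost end of its gene in the RefSeq table. The same held for GSTO1, whose window was searched but is not shown. MGST2 and UGT2B4 had no entry.

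GSTA1, chr6:52803817-52804066, minus strand: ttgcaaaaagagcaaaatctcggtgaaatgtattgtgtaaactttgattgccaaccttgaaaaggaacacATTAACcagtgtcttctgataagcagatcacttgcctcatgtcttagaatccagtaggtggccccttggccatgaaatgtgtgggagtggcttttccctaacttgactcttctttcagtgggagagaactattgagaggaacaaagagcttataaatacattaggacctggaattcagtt

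MGST1, chr12:16347395-16347644, plus strand: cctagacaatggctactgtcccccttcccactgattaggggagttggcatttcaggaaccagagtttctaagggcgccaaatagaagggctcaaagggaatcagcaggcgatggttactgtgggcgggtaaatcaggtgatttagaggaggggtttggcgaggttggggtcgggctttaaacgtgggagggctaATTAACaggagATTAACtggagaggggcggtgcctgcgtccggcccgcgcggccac

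SULT1C2, chr2:108288645-108288894, plus strand: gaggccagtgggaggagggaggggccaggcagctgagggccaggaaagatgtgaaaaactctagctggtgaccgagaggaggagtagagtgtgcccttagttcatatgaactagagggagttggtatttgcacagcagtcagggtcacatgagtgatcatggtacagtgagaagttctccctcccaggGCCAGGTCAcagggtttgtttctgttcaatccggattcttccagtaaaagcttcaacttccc

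SULT2A1, chr19:47886316-47886565, minus strand: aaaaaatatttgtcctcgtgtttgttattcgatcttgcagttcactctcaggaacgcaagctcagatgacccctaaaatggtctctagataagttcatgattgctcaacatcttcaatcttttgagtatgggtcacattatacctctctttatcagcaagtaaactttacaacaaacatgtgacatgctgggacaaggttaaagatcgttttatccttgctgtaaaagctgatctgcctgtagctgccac

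Both strands of this window were searched for 6 motifs in the 7 enzymes with an entry. GTTAAT, the core of HNF1 sites, was found in GSTA1 (bases -180 to -175 from the start site) and in MGST1 at -56 to -51 and at -45 to -40. Each of these matches was on the opposite strand. GTTAAT occurred in 2 of the 7 windows and in 6.23% of 35116 RefSeq windows of the same length. AGGTCA, the core bound by many nuclear receptors, was found in SULT1C2 at -59 to -54 and in GSTA4, 2 of 7 windows against 12.1% of all. TGACNNNGC, the core of the antioxidant response element, was found in GSTA4, GSTO1 and SULT1C2, against 10.9% of all windows. In both GSTA4 and SULT1C2 it overlaps AGGTCA. CAAAGTCCA, a form specific to HNF4 (0.325% of all windows), TGANTCA, the AP-1 site (6.57%), and CAGACA, a Smad-binding form (13.6%), were in none of the 7 windows. SULT2A1 held none of the 6. A match is a description of letters, and the absence of one says only that these letters are not in the window.

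As a check of the cell type, 10 hepatocyte markers (ALB, AFP and APOA1 among them) were all well above the floor, with the dimmest of them at 491.8 to 876.8 on an array. With the siRNA TTR fell (-0.52 ± 0.12) and FGB rose (0.74 ± 0.11). At 24 h TTR (-0.54 ± 0.14), FGB (-0.65 ± 0.14) and RBP4 (-0.47 ± 0.11) fell. SERPINA1 rose at 24 h (0.34 ± 0.09), but not without the siControl 0 h array. The other markers did not pass in either comparison (limma). Of 10 markers of blood, endothelial and fibroblast cells, PTPRC, CDH5, VWF and COL3A1 stayed under the floor on all arrays. The summed signal of those 10 was 137.3 (siControl) and 155.6 (siHNF4A) at 0 h, 201.7 and 137.7 at 1.5 h, and 332.1 and 221.9 at 24 h. CD14 (1.39 ± 0.35) and PECAM1 (1.01 ± 0.27) rose at 24 h, neither of which passed without the siControl 0 h array, while CD14 fell with the siRNA (-1.18 ± 0.29), and their part in the results below was not tested. The siControl 0 h array stood apart in the control probe set AFFX-HUMRGE at the 5′ end, which read 8600 there and 69.8 to 736.5 on the other 5 arrays, so the fits were repeated without it. Comparisons between single arrays that use siControl at 0 h have no such value. Without that array the siRNA differences of GSTA1 (-1.86) and MGST1 (-0.39) and the 24 h differences of GSTA1 (-1.77), MGST1 (-1.15), SULT2A1 (-1.40) and UGT2B4 (1.36) still passed. In bulk RNA, fewer cells of a kind and less RNA per cell cannot be told apart.

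The siRNA comparison asked how far the enzymes depend on HNF4A. Each difference is a log2 value followed by its standard error from limma, and a signal under the floor was set to it. All 9 fitted differences were below 0, with a median of -0.35 against -0.04 over the 11921 genes tested. GSTA1, MGST1 and SULT2A1 fell, 3 of 9 where 4.16% of all genes tested fell, and none rose, where 3.90% of all genes did (limma with time as a block, Benjamini-Hochberg adjusted p under 0.05). With arrays scaled to a common median, 558 genes rose and 385 fell, against 465 and 496 as deposited.

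GSTA1 read 204.7 at 0 h, 192.4 at 1.5 h and 44.7 at 24 h in siControl, and 43.0, 50.3 and 9.9 in siHNF4A. At every time the siHNF4A array was the lower, and the siHNF4A array at 0 h was already as low as the siControl array at 24 h. GSTA1 fell, with a fitted difference of -1.99 ± 0.21 (limma adjusted p = 3.76e-05) and a 95% interval of -2.44 to -1.54, or 3.98-fold lower. GSTA1 stood at 21.0% of siControl at 0 h, 26.1% at 1.5 h and at most 28.9% at 24 h, where its siHNF4A signal lay under the floor.

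SULT2A1 read 211.6, 249.7 and 77.4 in siControl and 136.7, 135.5 and 55.5 in siHNF4A at 0, 1.5 and 24 h. The siHNF4A array was lower at each time, although the 24 h arrays of both kinds lay below all earlier ones. SULT2A1 fell by 0.66 ± 0.17 (limma adjusted p = 0.0256), 1.58-fold. It no longer passed without the 0 h pair (-0.68), the 1.5 h pair (-0.56), the 24 h pair (-0.76) or the siControl 0 h array alone (-0.68). The last of these is no separate check, since without siControl at 0 h the siRNA difference rests on the 1.5 and 24 h pairs.

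MGST1 read 2895.9, 3001.3 and 1475.4 in siControl and 2376.6, 2537.5 and 1018.6 in siHNF4A. Again the siHNF4A array was the lower at each time, by a smaller step than for GSTA1. MGST1 fell by 0.35 ± 0.09 (limma adjusted p = 0.0279), 1.28-fold. Its call was lost on leaving out the 1.5 h pair (-0.41) or the 24 h pair (-0.26), and with arrays scaled to a common median (-0.31).

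The other 6 did not pass. UGT2B4 read 33.9, 36.4 and 64.3 in siControl and 20.3, 24.9 and 55.0 in siHNF4A, a difference of -0.50 ± 0.24 with a 95% interval of -1.02 to 0.01. It was lower in siHNF4A at each of the 3 times, so a fall of the size of that of SULT2A1 lies within its interval. GSTK1 read 237.0, 250.8 and 246.9 against 188.8, 207.3 and 185.5, its siHNF4A array the lower at each time. Its difference was -0.34 ± 0.14 (limma adjusted p = 0.174). MGST2 read 1003.7, 979.6 and 870.8 against 827.5, 876.4 and 764.9, with -0.21 ± 0.10. GSTA4 read 456.5, 507.4 and 402.3 against 432.1, 408.9 and 316.1, with -0.25 ± 0.12. In both MGST2 and GSTA4 the siHNF4A array was the lower at each time, and the 24 h siControl array lay below at least 1 siHNF4A array of an earlier time.

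GSTO1 read 3280.4, 3042.9 and 3203.5 in siControl and 2749.1, 3040.4 and 2894.1 in siHNF4A, and its arrays at 1.5 h were nearly equal. Its difference was -0.13 ± 0.09, with a 95% interval of -0.32 to 0.05. SULT1C2 read 108.0, 75.1 and 32.9 against 50.5, 82.5 and 29.0. It was lower in siHNF4A at 0 h and higher at 1.5 h, and the difference of -0.38 ± 0.25 had an interval of -0.91 to 0.15. Without the siControl 0 h array that difference was -0.023, and without the 1.5 h pair it was -0.64, neither of which passed.

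Between single arrays, with no test, GSTA1 and SULT1C2 were at least 2-fold lower in siHNF4A at 0 h, 2 of 9 where 1.63% of all genes were. At 1.5 h and at 24 h GSTA1 alone was, 1 of 9 where 3.26% and 3.05% of all genes were. No enzyme was 2-fold higher in siHNF4A at any time.

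**Figure D1:**
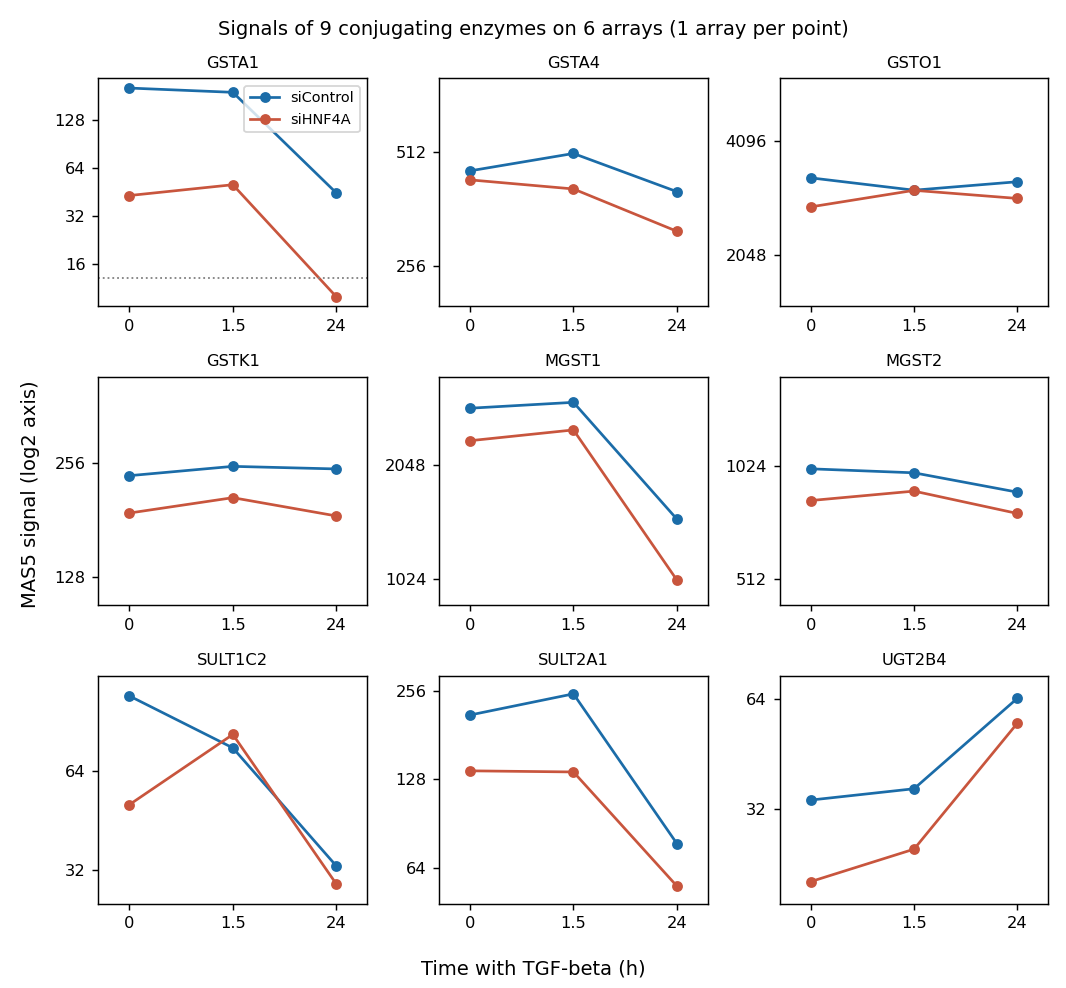
MAS5 signals of the 9 measured enzymes (vertical, log2 axis with a scale of its own in each panel) at 0, 1.5 and 24 h with TGF-beta (horizontal, equally spaced), in siControl and siHNF4A, 1 array per point, with the floor of 12.9 dotted where it is in range. GSTA1, MGST1, SULT1C2 and SULT2A1 end low at 24 h in both kinds of cell, UGT2B4 ends high, and GSTA1 starts at 204.7 in siControl and 43.0 in siHNF4A.

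The late comparison asked which enzymes differed after 24 h with TGF-beta, over both siRNAs. The enzymes split: GSTA1, MGST1, SULT1C2 and SULT2A1 fell, 4 of 9 where 7.82% of all genes fell, UGT2B4 rose, 1 of 9 where 7.22% of all genes rose, and 4 did not pass (limma adjusted p under 0.05). The median over the 9 was -0.32, against -0.03 over all genes tested. Those that fell were 2 glutathione transferases and both sulfotransferases.

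GSTA1 fell, with a fitted difference of -1.97 ± 0.26 (limma adjusted p = 0.000147) and a 95% interval of -2.52 to -1.42, or 3.91-fold lower. Its 24 h signal was 21.8% of that at 0 h in siControl and at most 30.0% in siHNF4A. In siControl its 24 h difference ranked 3 from the lowest among the 11921 genes tested.

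SULT2A1 fell by 1.38 ± 0.21 (limma adjusted p = 0.000465), with the 24 h signal at 36.6% of the 0 h signal in siControl and 40.6% in siHNF4A. MGST1 fell by 1.10 ± 0.11 (limma adjusted p = 2.23e-05), to 50.9% in siControl and 42.9% in siHNF4A. In both enzymes each 24 h array lay below all 4 arrays of the earlier times.

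SULT1C2 fell by 1.26 ± 0.30 (limma adjusted p = 0.0117), to 30.5% of the 0 h signal in siControl and 57.4% in siHNF4A. Both 24 h arrays were again below the other 4. Without the siControl 0 h array, however, its difference was -0.72 and did not pass, a move of over 1.5 times.

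UGT2B4, the bile acid glucuronosyltransferase, went the other way. It rose by 1.18 ± 0.29 (limma adjusted p = 0.014), 2.27-fold, to 190% of the 0 h signal in siControl and 271% in siHNF4A. Its 24 h arrays, at 64.3 and 55.0, both lay above the 4 earlier arrays, which ran from 20.3 to 36.4. It still passed without the siControl 0 h array.

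GSTA4 (-0.32 ± 0.15), MGST2 (-0.16 ± 0.12), GSTO1 (0.02 ± 0.10) and GSTK1 (0.02 ± 0.17) did not pass. The 95% interval of GSTO1 ran from -0.20 to 0.24 and that of GSTK1 from -0.35 to 0.39, so a fall of the size fitted for MGST1 lies outside both. For GSTA4 it ran from -0.64 to 0.0032.

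At 1.5 h no enzyme passed, where 0.101% of all genes did, and none had an unadjusted p under 0.05 (limma). The fitted differences ran from 0.02 (GSTO1) to 0.20 (UGT2B4). The early signals of GSTA1, MGST1 and SULT2A1 stayed near those at 0 h in both kinds of cell. SULT1C2 differed most between the kinds, at 69.5% of the 0 h signal in siControl and 163% in siHNF4A, with no test of that contrast.

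**Figure D2:**
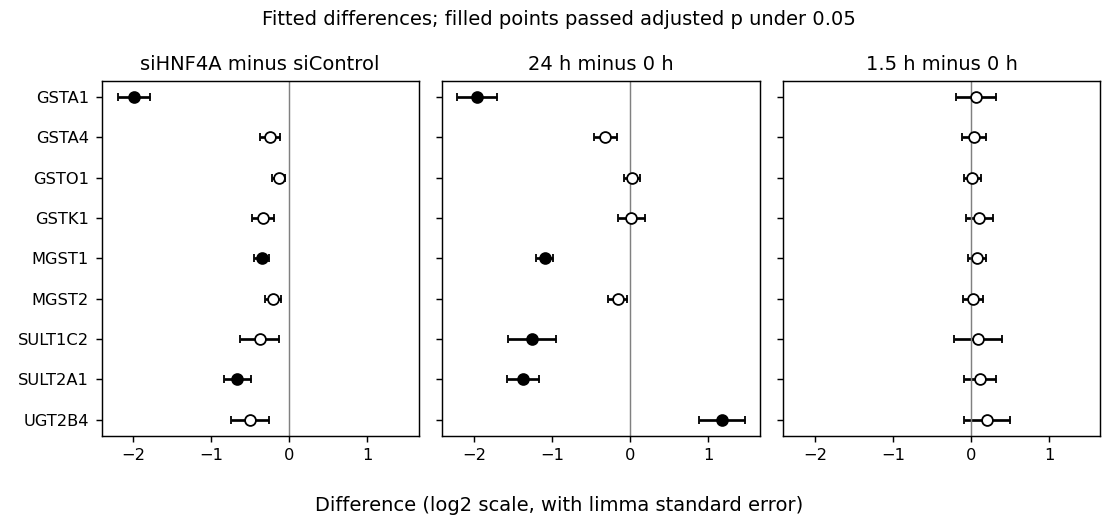
Fitted log2 differences (horizontal) of the 9 enzymes for the siRNA, for 24 h and for 1.5 h with TGF-beta, with bars for limma's standard error and filled points for those that passed an adjusted p under 0.05. Filled points number 3 for the siRNA, 5 for 24 h, of which UGT2B4 at 1.18 is the only one above 0, and none for 1.5 h.

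Whether the 24 h response depended on the siRNA was asked by adding a term for the siRNA difference at 24 h against its mean at the earlier times. No enzyme passed, nor did any gene tested (0% of 11921), and none of the 9 had an unadjusted p under 0.05, while 543 of all genes did (limma). Over all genes this count depended on the setting, with 345 rising and 294 falling when dim genes were kept in, and 13 and 11 with the floor added to each signal before log2, but none of the 9 enzymes passed in either. This fit had 1 residual degree of freedom, so a difference between the kinds of cell may have been missed. The 24 h differences in siControl and siHNF4A were -2.20 and, with the siHNF4A signal at the floor, at least as low as -1.74 for GSTA1, -0.97 and -1.22 for MGST1, and -1.45 and -1.30 for SULT2A1. They were -1.71 and -0.80 for SULT1C2, and 0.92 and 1.44 for UGT2B4. At 24 h against 0 h, GSTA1, SULT1C2 and SULT2A1 were 2-fold lower in siControl, 3 of 9 where 2.60% of all genes were, and GSTA1, MGST1 and SULT2A1 in siHNF4A, 3 of 9 where 4.61% were.

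Cells with both treatments were set against those with neither, between single arrays and with no test. GSTA1 in siHNF4A at 24 h was at most 6.30% of its level in siControl at 0 h. SULT2A1 stood at 26.2%, SULT1C2 at 26.9% and MGST1 at 35.2%, so 4 of 9 were 2-fold lower, where 7.00% of all genes were. UGT2B4 stood at 162%. For SULT2A1 the combined difference of -1.93 was near the sum of the separate differences, -2.08. For MGST1 it was -1.51 against -1.26, for SULT1C2 -1.90 against -2.81, and for UGT2B4 0.70 against 0.18. Every such sum takes the siControl 0 h array as its reference 2 times.

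Other probe sets of the same gene gave a further reading of 6 enzymes, though on the same RNA and arrays. For MGST1 the second-brightest fell by 0.35 ± 0.09 with the siRNA and by 1.25 ± 0.11 at 24 h, both of which passed. A further, dimmer probe set of MGST1 read 1982.8, 1930 and 1056.5 in siControl and 1502.2, 1602.7 and 702.2 in siHNF4A, again low on both 24 h arrays. A much dimmer one read 44.5, 20.2 and 7.9 in siControl and 23.8, 11.3 and 9.7 in siHNF4A, and was already lower at 1.5 h (-1.01). Fitted in place of the brightest, it passed at 24 h (-1.34) but not for the siRNA (-0.52) or at 1.5 h. The remaining MGST1 probe set stayed under the floor on all arrays. For SULT2A1 the second read 207.1, 188.3 and 73.8 in siControl and 153.8, 186.2 and 36.7 in siHNF4A. It fell by 1.78 ± 0.24 at 24 h, but its siRNA difference of -0.48 ± 0.20 did not pass, and its 1.5 h arrays were nearly equal.

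For GSTA1 the second probe set read only 21.8 to 40.9, with 40.1, 40.9 and 27.2 in siControl and 26.6, 21.8 and 27.5 in siHNF4A. Its differences of -0.49 ± 0.27 for the siRNA and -0.26 ± 0.33 at 24 h did not pass, so the calls for GSTA1 come from the brighter probe set. The related GSTA2 had no probe set with its symbol alone. Whether signals assigned to GSTA1 are shared with GSTA2 was not tested. For SULT1C2 the second read 63.0, 58.7 and 27.2 in siControl and 30.7, 24.6 and 24.2 in siHNF4A. There the siHNF4A array stayed low at 1.5 h, where the brighter probe set had read 82.5, and neither the siRNA difference of -0.82 ± 0.27 nor the 24 h difference of -0.78 ± 0.33 passed. Those of GSTA4 (-0.55 and -0.57) and GSTO1 (-0.19 and 0.03) did not pass either. The brightest probe sets of MGST1, SULT1C2 and SULT2A1 have names ending in _x_at or _s_at, which mark probes that can match more than 1 transcript. So do the second-brightest of MGST1 and SULT1C2 and the MGST1 probe set that read 1982.8 in siControl at 0 h. Those readings are therefore no check on probes shared between transcripts. The SULT1C2 probe sets without such an ending stayed under the floor on all 6 arrays.

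**Figure D3:**
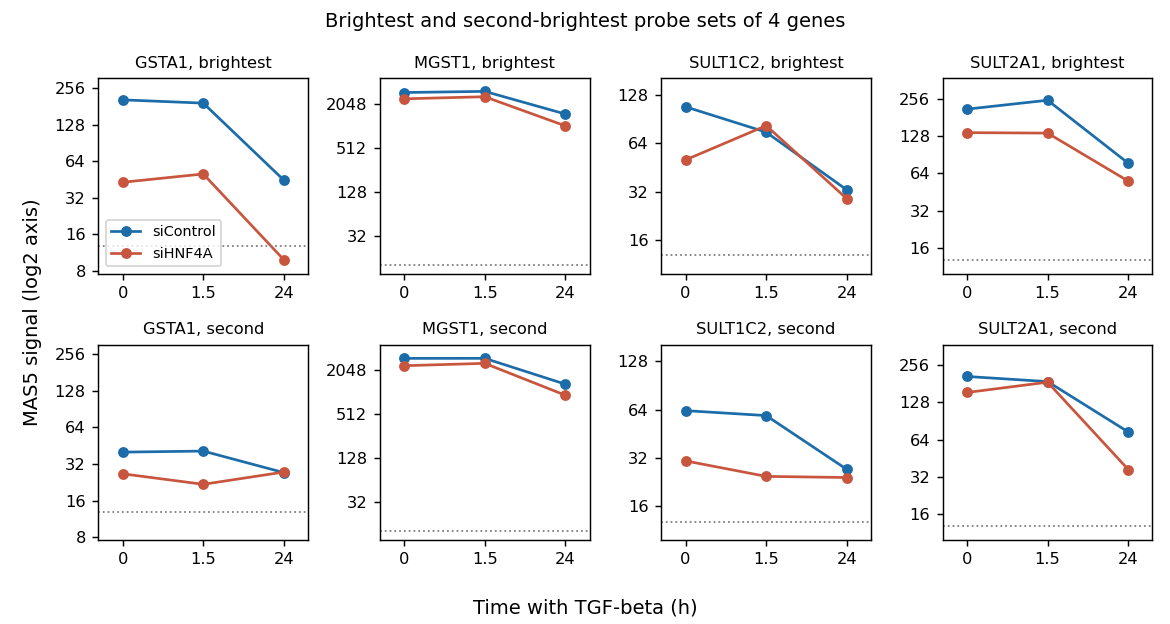
MAS5 signals (vertical, log2 axis) of the brightest (top) and second-brightest (bottom) probe sets of GSTA1, MGST1, SULT1C2 and SULT2A1 at 0, 1.5 and 24 h (horizontal, equally spaced), 1 array per point, with the floor of 12.9 dotted. The pairs run alike for MGST1 and for SULT2A1 at 24 h, while the second probe set of GSTA1 stays between 21.8 and 40.9 on all 6 arrays.

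Relatives of these enzymes were read in the same way. Over all genes tested, 4.16% fell and 3.90% rose with the siRNA, and 7.82% fell and 7.22% rose at 24 h. Of 11 other glutathione transferases tested, GSTM4 fell with the siRNA (-0.86 ± 0.19) and none rose. At 24 h GSTM4 fell (-0.75 ± 0.24, not without the siControl 0 h array) and MGST3 rose (0.51 ± 0.15), and 9 did not pass. The mu-class genes are close in sequence, so signals assigned to GSTM4 may be shared. Of 4 other sulfotransferases, SULT1A1, the main phenol sulfotransferase of liver, fell by 0.48 ± 0.09 with the siRNA and SULT1C4 rose by 0.83 ± 0.24, the latter not without the siControl 0 h array. None of the 4 passed at 24 h, with 2 at an unadjusted p under 0.05 (limma). The probe set used for SULT1A1 has a name ending in _x_at, and SULT1A2, SULT1A3 and SULT1A4 had none with their symbol alone. Signals assigned to SULT1A1 may therefore be shared. Of 2 other glucuronosyltransferases tested, the probe set named for UGT2B28 fell at 24 h by 1.10 ± 0.19, opposite to UGT2B4. It read 590.9, 496.9 and 367.6 in siControl and 713.7, 596.1 and 249.6 in siHNF4A, and its name ends in _x_at.

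Genes that make, recycle and break down glutathione were among those that fell at 24 h. Of 8 tested, 5 fell at 24 h, where 7.82% of all genes did, and none rose, where 7.22% did. Their median was -0.55, against -0.03 over all genes tested. With the siRNA none of the 8 passed, with 2 at an unadjusted p under 0.05 (limma). GCLC (-0.50 ± 0.12) and GCLM (-0.48 ± 0.15), the subunits of the ligase that starts glutathione synthesis, and GSR (-0.61 ± 0.14), which recycles the oxidised form, were among the 5 that fell. GGCT (-0.79 ± 0.12) and CHAC2 (-0.68 ± 0.18), which act in its breakdown, were the others. Without the siControl 0 h array 2 of the 5, GGCT and GSR, passed. The difference between the siRNA and the 24 h effect was not tested.

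Genes that supply the other donors moved both ways. PAPSS1, which makes the sulfate donor PAPS, rose at 24 h by 0.47 ± 0.12 (not without the siControl 0 h array). It was 1 of 5 genes of sulfate supply, where 7.22% of all genes rose. None of the 5 passed with the siRNA or had an unadjusted p under 0.05 there (limma). Of 9 genes of UDP-glucuronate supply, 2 rose and 2 fell with the siRNA, where 3.90% and 4.16% of all genes did. At 24 h 3 rose and 3 fell, where 7.22% and 7.82% of all genes did. Without the siControl 0 h array 2 rose and none fell with the siRNA. UGP2, which makes UDP-glucose, read 682.8, 708.5 and 1343 in siControl and 1704, 1938.2 and 2401.8 in siHNF4A. All 3 siHNF4A arrays lay above all siControl arrays, and UGP2 rose by 1.20 ± 0.12 with the siRNA and by 0.74 ± 0.14 at 24 h. UGDH, which oxidises UDP-glucose to UDP-glucuronate, fell at 24 h by 0.59 ± 0.12. SLC35D1, which carries UDP-glucuronate into the endoplasmic reticulum, fell by 0.53 ± 0.12 with the siRNA and by 0.49 ± 0.14 at 24 h, and PGM1 by 0.38 ± 0.10 and 0.52 ± 0.12. The hexokinase HK2 rose by 0.93 ± 0.11 and 0.52 ± 0.14, and HK1 rose at 24 h by 1.98 ± 0.32. Without the siControl 0 h array SLC35D1 passed in neither, PGM1 only at 24 h and HK2 only with the siRNA.

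Of 6 efflux pumps for conjugates, the canalicular ABCC2 (-0.79 ± 0.16) and ABCG2 (-1.03 ± 0.21) fell at 24 h, the latter not without the siControl 0 h array. None of the 6 passed with the siRNA or had an unadjusted p under 0.05 there (limma). Of all genes tested, 7.82% fell and 7.22% rose at 24 h, and 4.16% fell and 3.90% rose with the siRNA. None of 5 genes of mercapturate formation passed, with 2 at an unadjusted p under 0.05 for the siRNA and 1 at 24 h (limma). None of 7 genes of deconjugation passed, with 1 in each comparison at an unadjusted p under 0.05 (limma).

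**Figure D4:**
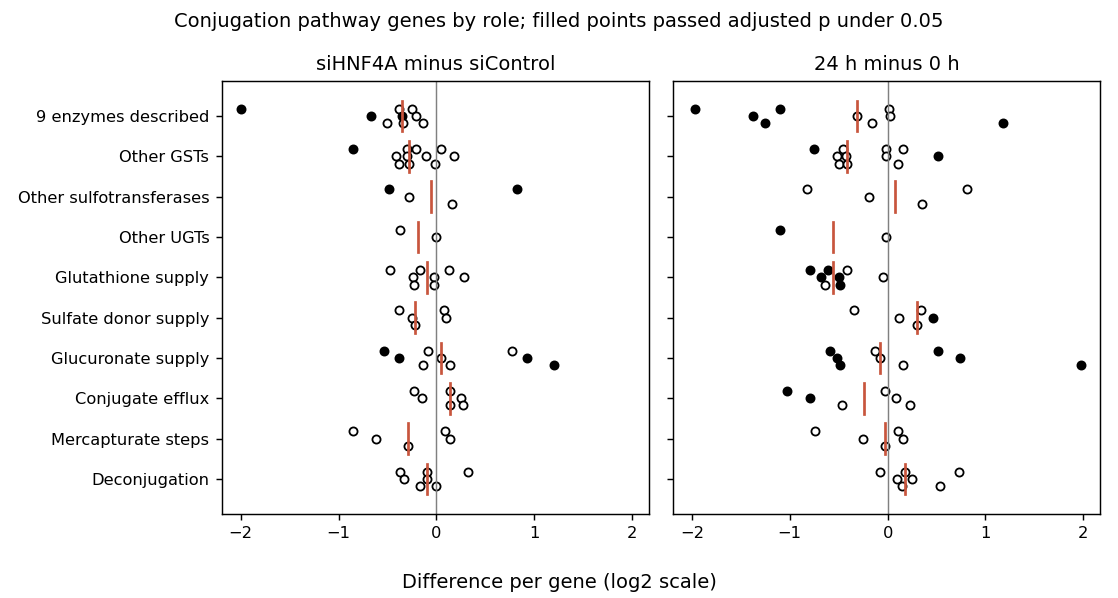
Fitted log2 differences (horizontal, 1 point per gene) for the siRNA and for 24 h with TGF-beta, by role in conjugation (rows), with a vertical mark at each median and filled points for an adjusted p under 0.05. At 24 h the glutathione supply genes lie below 0 with a median of -0.55, and UGP2 (0.74), HK1 (1.98) and UGT2B4 (1.18) are among the filled points above 0.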

How the data were processed

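RNA of 6 HepG2 samples, 1 per combination of siRNA and time, was hybridised to Affymetrix arrays. The deposited values are intensities: linear MAS5 signals that the authors computed with GCOS and MAS5 5.0 (per the submitters' processing notes). MAS5 reduces the paired probes for a target to a single value. After trimming, the mean was about 100 on each array, the mark of global scaling, and signals were used with no further scaling. The targeted gene is not reported here.

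Of 54675 probe sets, 41091 had 1 gene symbol in the platform annotation, naming 19775 genes. Signals below 12.9 were raised to 12.9 before taking log2. The 11921 genes with a mean signal above that floor entered limma 3.58.1 in R 4.3.3 (lmFit, eBayes with an intensity trend, Benjamini-Hochberg adjustment over all genes tested, threshold 0.05), with siRNA and time as terms. This left 2 residual and 12.6 prior degrees of freedom, and 1 and 8.56 with the added term. With no replicates, the error term is how unevenly an effect repeats over the other factor, which may be technical. The step was tested on simulated data. The enzymes, the gene lists and the naming rule (the listed enzymes, plus up to 5 called genes per list and comparison) were chosen with earlier results of these data known. Alternatives were other scalings, floors, probe set rules, filters and priors, and leaving out arrays. Promoters and figures used Python 3.11.15, pandas 2.3.3 and matplotlib 3.10.9.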

Additional observations from a re-analysis of the deposited data

Results flagged for a closer look

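Responses of opposite sign in the 2 kinds of cell stood out, each resting on single arrays, with the difference between kinds not tested at 1.5 h. At 1.5 h SULT1C2 had -0.52 in siControl and 0.71 in siHNF4A, a difference of 1.23 (log2, siHNF4A minus siControl). Its second probe set was not higher at 1.5 h in siHNF4A, with signals of 30.7 at 0 h and 24.6 at 1.5 h. As the same arrays make it, the siRNA difference of SULT1C2 was 0.14 at 1.5 h and -0.18 at 24 h, 0.32 apart. The other 1.5 h differences between kinds were small, at 0.32 for GSTA1, 0.25 for GSTO1, 0.12 for MGST2, -0.23 for GSTA4 and -0.25 for SULT2A1. At 24 h they were 0.11 for GSTO1 and -0.084 for GSTK1, neither of which passed in the fit with the added term.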

How the results depend on the processing

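No called difference of an enzyme changed sign under any alternative. The 3 siRNA calls became 1 (GSTA1) with the mean of all probe sets, 1 without _x_at and _s_at probe sets, 1 without the intensity trend, 0 with dim genes kept in, 1 (MGST1) with the second-brightest probe sets, and 1 to 2 when a pair of arrays of 1 time was left out. The 5 calls at 24 h became 0 with dim genes kept in and 3 with the second-brightest probe sets (MGST1, SULT2A1 and UGT2B4, which has a single probe set and kept it), and were 4 or 5 under the other alternatives. The cause was not tested. The second-brightest probe sets were an alternative chosen after seeing the data, as was leaving out the siControl 0 h array for the gene lists. Over all genes, 465 rose and 496 fell with the siRNA, against 104 and 123 with the mean of all probe sets, 16 and 29 without the trend, 0 and 0 with dim genes kept in, 296 and 282 without the 1.5 h pair and 133 and 109 without the 24 h pair. At 24 h 861 rose and 932 fell, against 382 and 424, 249 and 208, and 1 and 0 under the same changes of probe set rule, trend and filter. At 1.5 h 10 rose and 2 fell, against 0 and 0 under each of those 3 changes, 5 and 2 without _x_at and _s_at probe sets, and 16 and 10 without the siControl 0 h array. With a lower floor, at the 40th percentile, the added term gave 1 and 3. GSTA1 passed for the siRNA in 12 of 14 alternatives and at 24 h in 10 of 12, MGST1 in 7 of 14 and 11 of 12, SULT2A1 in 5 of 14 and 11 of 12, SULT1C2 at 24 h in 6 of 11 and UGT2B4 in 10 of 11. Leaving out the siControl 0 h array gave the same siRNA difference as leaving out the 0 h pair, so for the siRNA these alternatives are not separate checks. The added term could not be fitted with a test when arrays were left out. Signals of GSTA1 and UGT2B4 near the floor limit their folds.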

Other observations

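Enzymes of other detoxification routes and transcription factors were read too. The shares of all genes were 4.16% falling and 3.90% rising with the siRNA, and 7.82% falling and 7.22% rising at 24 h. Of 9 such enzymes tested, NAT1, an arylamine acetyltransferase, fell with the siRNA by 0.58 ± 0.16 (not without the siControl 0 h array). EPHX2, the soluble epoxide hydrolase, fell at 24 h by 1.57 ± 0.31. EPHX2 read 64.9, 57.3 and 20.1 in siControl and 40.5, 25.1 and 14.9 in siHNF4A at 0, 1.5 and 24 h. Among 14 transcription factors held to act on conjugating genes, AHR, the receptor for dioxin-like compounds, rose with the siRNA (0.87 ± 0.15) and at 24 h (0.86 ± 0.18). It read 184.1, 159.8 and 266.6 in siControl and 263.5, 302.9 and 598.7 in siHNF4A. At 24 h CEBPA, a factor of mature hepatocytes, fell by 1.40 ± 0.16 and NFE2L2, which drives antioxidant genes, by 0.37 ± 0.10, while VDR (1.24 ± 0.36, with siHNF4A at 0 h under the floor) and PPARA (0.80 ± 0.22) rose. Without the siControl 0 h array NFE2L2, VDR and PPARA did not pass.

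The UGT1A enzymes share their last exons, and 7 probe sets named several of them at a time. These were dim on all arrays, from 0.3 to 30.9. The probe sets of UGT1A1 alone and UGT1A6 alone stayed under the floor of 12.9 on all 6 arrays.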
